A study of Mus musculus with 4 samples.

Results

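PPARalpha, the nuclear receptor encoded by Ppara, and 7 of its fasting target genes (Cpt1a, Pdk4, Cyp4a10, Cyp4a14, Vnn1, Angptl4 and Ehhadh) were examined in mouse liver. The members were taken by symbol from the scanner files, which gave 8 of 30439 genes or transcripts and 13 of 39392 probes, and all 13 probes were well above background on all 4 arrays. In livers of Drp1LiKO mice, Ppara was 2.09-fold lower than in control (Cont) livers after fasting and 2.62-fold lower after refeeding. The differences of its targets ran in both directions after refeeding, and after fasting the number above 0 was 4 to 6 of the 7, depending on the scaling. Ehhadh was at least 2-fold higher in Drp1LiKO in both states, Pdk4 was so on the fasted pair of arrays, and Vnn1 and Angptl4 were at least 2-fold lower on the refed pair. Of all genes, 4.53% were at least 2-fold higher and 5.04% lower on the fasted pair, and 4.03% and 6.33% on the refed pair. Refeeding went with lower levels of all 7 targets in both genotypes, by a median log2 difference of -0.43 in Cont and -1.23 in Drp1LiKO. The differences of Vnn1 in Cont and of Cyp4a10 in Drp1LiKO were smaller than their measurement error. Of all genes, 41.4% in Cont and 44.7% in Drp1LiKO were lower after refeeding.

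The arrays were 4 one-color Agilent 60-mer arrays of liver RNA, with 1 array for each of the groups Cont, Drp1LiKO, Cont refed and Drp1LiKO refed. All mice were male C57BL/6J on a high-fat diet (HFD), for 24 weeks according to the labels. Drp1 is the GTPase that divides mitochondria, and in Drp1LiKO mice its floxed gene, Dnm1l, is removed by an Alb-Cre transgene, which the albumin promoter drives in hepatocytes. The Cont mice are sibling littermates that also carry both floxed alleles but are named without the transgene. The refed livers were taken after a 17 h fast and 4 h of feeding. The labels give no feeding state for the groups Cont and Drp1LiKO, which are called fasted here from the methods of the study. The series text has the mice refed and the labels give the raw data of these groups as shared with earlier submissions, so every fasted value rests on that reading. With 1 array per group there is no replicate, the number of arrays limits the precision, and the SE given with each difference is the measurement error of the scanner software, which leaves out differences between animals.

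PPARalpha is a ligand-activated transcription factor of hepatocytes. It binds DNA as a heterodimer with the retinoid X receptor at direct repeats of a short half-site, and fatty acids released during fasting activate it. Its known targets carry fatty acids into mitochondria and peroxisomes, oxidize them, hydroxylate them at the omega end in the endoplasmic reticulum and hold back glucose oxidation. In fed liver, insulin and low fatty acid supply keep these genes low.

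The probe sequences are shown first, because they decide which transcripts each level can report. Ppara was read by 3 probes on chromosome 15 (mm9 build), which span 85632110 to 85632169 (the probe used, A_55_P2055854), 85632534 to 85632593 (A_55_P2071601) and 85637193 to 85637252 (A_55_P2071596), all on the plus strand. Bases 1 to 30 of each are printed 5′ to 3′ in lower case.
Ppara A_55_P2055854: ctttgaaaacctacaagtcaaggtgtggcc
Ppara A_55_P2071601: aaatgctcctctaggcccctcctttggcag
Ppara A_55_P2071596: cctgtaagctgatgaatgtaaagagttaat
None of the 3 shared a run of 15 or more bases with a probe of another gene.

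Cyp4a10 belongs to a family of close copies on chromosome 4, and 2 of its 3 probes shared long runs with probes of Cyp4a31. The probe used (A_51_P254895, with no position in the files) shared 34 bases, and A_55_P2092030 (mm9, 115198463 to 115198522) shared 27. Capitals mark the shared bases in the stretches printed here, bases 1 to 30 of the first and 6 to 35 of the second.
Cyp4a10 A_51_P254895: acgAGTTTCTCCATCTTCCCTCCTTTCTGC
Cyp4a10 A_55_P2092030: tgtCAGAGAACTCAGTACATCTGTCACCTT
Cyp4a10 A_55_P2011111: ttcatctaaatctaccctgcatagtctctt
Cyp4a14 A_51_P238576: aggttgttctctgcttttgactcctgagct
The third Cyp4a10 probe (115206150 to 115206209) and the Cyp4a14 probe (115158914 to 115158973, minus strand) had no such run. The Cyp4a10 level may therefore include Cyp4a31 transcripts.

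RefSeq promoter sequence (GRCm38.p6) was found for 4 of the 8 genes, Ppara, Cpt1a, Ehhadh and Pdk4, and the 250 bases before each start are printed in the direction of the gene. The half-site AGGNCA and the direct repeat AGGNCANAGGNCA, to which the receptor pair is known to bind, were searched on both strands, and capitals mark half-site matches.
Ppara, chr15:85735526-85735775, plus strand: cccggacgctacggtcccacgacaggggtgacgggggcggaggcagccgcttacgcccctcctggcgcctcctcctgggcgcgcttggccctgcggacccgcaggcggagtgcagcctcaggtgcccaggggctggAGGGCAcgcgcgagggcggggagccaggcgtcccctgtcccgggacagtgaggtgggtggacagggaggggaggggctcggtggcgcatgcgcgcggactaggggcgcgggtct
Cpt1a, chr19:3323051-3323300, plus strand: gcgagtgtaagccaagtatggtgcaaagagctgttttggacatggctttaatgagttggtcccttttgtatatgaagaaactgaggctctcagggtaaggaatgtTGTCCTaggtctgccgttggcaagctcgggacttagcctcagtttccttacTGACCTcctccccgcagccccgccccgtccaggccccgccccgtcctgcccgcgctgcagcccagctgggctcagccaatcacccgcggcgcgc
Ehhadh, chr16:21787835-21788084, minus strand: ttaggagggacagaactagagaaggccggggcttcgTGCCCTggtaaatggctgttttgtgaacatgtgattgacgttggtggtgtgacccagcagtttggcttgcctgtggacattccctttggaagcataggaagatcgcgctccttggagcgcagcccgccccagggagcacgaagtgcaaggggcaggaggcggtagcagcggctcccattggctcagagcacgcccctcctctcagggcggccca
Pdk4, chr6:5496279-5496528, minus strand: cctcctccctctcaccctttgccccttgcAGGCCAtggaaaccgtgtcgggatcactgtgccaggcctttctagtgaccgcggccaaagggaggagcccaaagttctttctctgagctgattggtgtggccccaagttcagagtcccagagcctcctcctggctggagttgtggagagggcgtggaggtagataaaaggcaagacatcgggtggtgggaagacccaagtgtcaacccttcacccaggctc
Each of the 4 windows held the half-site, as did 51.3% of all 32851 promoters, and none held the direct repeat, which was in 0.338% of all promoters. These windows say nothing about sites outside them.

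The arrays differed in ways that touch these genes. The 75th percentile of the signal, to which each array was scaled, was 461 in Cont, 722 in Drp1LiKO, 357 in Cont refed and 526 in Drp1LiKO refed. Of the 11 genes of a list repressed by insulin, 10 were lower on the refed array in Cont and 11 in Drp1LiKO, among them Igfbp1 (-1.88 and -4.41), and the lipogenic gene Thrsp was higher by 2.71 and 3.39. G6pc, a gluconeogenic gene, was an exception, higher by 1.38 on the refed Cont array. The level of Dnm1l was 1.02 in Cont, 0.81 in Drp1LiKO, 0.66 in Cont refed and 0.54 in Drp1LiKO refed on the log2 scale relative to the 75th percentile. The sources used here do not give the deleted exons, so its probe does not check the genotype labels.

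The Cont fasted array stood apart in skeletal muscle transcripts. Of 6 muscle markers, Ckm, Acta1, Myh4 and Tnnt3 were well above background on that array alone, Mb there and on Cont refed, and Mylpf on none. Acta1, skeletal actin, had a log2 level of 0.08 in Cont fasted and of -5.10, -4.38 and -6.73 in Drp1LiKO, Cont refed and Drp1LiKO refed. The summed level of the 5 usable markers was 1.73 in Cont fasted and between -3.75 and -2.06 on the other arrays. Every value that compares with the Cont fasted array, the fasted genotype difference and the Cont refeeding difference, is given with this in view, and the part of muscle RNA in it was not tested. The refed genotype difference and the Drp1LiKO refeeding difference do not use that array, but Mb, myoglobin, also differed in the refed pair. Its log2 level was -2.90 in Cont refed, and the signal in Drp1LiKO refed was not well above background, which bounds the difference at -1.64 or lower.

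**Figure D1:**
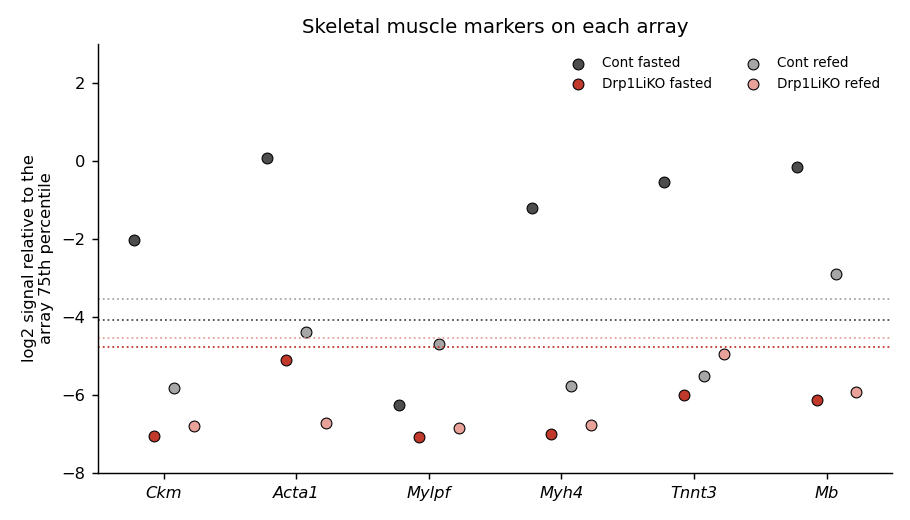
The y axis gives the log2 signal relative to the 75th percentile of the array for 6 skeletal muscle markers, with 1 point per array and dotted lines at the lowest signal well above background on each array. The Cont fasted points of 5 genes lie between -2.02 and 0.08, above all other arrays.

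Markers of liver cell types also moved with genotype. The summed level of 9 hepatocyte markers was 11.68 in Cont, 11.11 in Drp1LiKO, 11.91 in Cont refed and 11.40 in Drp1LiKO refed. Their median genotype difference was -0.58 after fasting and -0.45 after refeeding, and 0.0 and -0.09 with quantile normalization. Quantile normalization gives equal ranks equal values, which limits how far very bright genes, such as Alb at 9.76 in Cont fasted, can differ. Of 8 macrophage markers, 4 were at least 2-fold higher in Drp1LiKO in both states (Lyz2, Cd14, Trem2 and Marco). In the fasted pair 6 were above 0, and Clec4f (-0.16) and Csf1r (-0.35) were below. All 8 were above 0 in the refed pair. The summed level of the 8 differed by 0.26 in the fasted and 0.78 in the refed pair. Col1a1, Col1a2 and Col3a1 of 8 stellate cell and fibroblast markers were at least 2-fold higher in fasted Drp1LiKO, with none at least 2-fold apart on the refed pair. Of these 8, 6 were above 0 in the fasted pair, and Des (-0.08) and Reln (-0.74) were below. In the refed pair 4 were above 0 and 4 below. Of all genes, 4.53% were at least 2-fold higher in the fasted pair and 4.03% in the refed pair, and 5.04% and 6.33% were lower. Of 6 adipocyte markers, Adipoq, Retn, Plin1 and Lep were well above background on no array, while Cfd and Car3 were lower in Drp1LiKO, with differences of -5.07 and -1.77 in the fasted pair and of -6.27 and -1.57 in the refed pair. S100a8 and S100a9 of 7 neutrophil and lymphocyte markers were lower in fasted Drp1LiKO (-1.04 and -1.11) and S100a9 was higher in refed Drp1LiKO (1.04). The list was mixed, with 3 above 0 and 4 below in the fasted pair and 4 above and 3 below in the refed pair. Ly6g, also a neutrophil marker, had genotype differences of 0.08 and 0.02. Of 5 usable cholangiocyte markers, Sox9 and Spp1 were higher in fasted Drp1LiKO by 1.24 and 1.40, Cftr was at least 2-fold lower there, and Sox9 was higher by 1.67 in refed Drp1LiKO. Between feeding states, Marco was at least 2-fold higher on the refed array in both genotypes and Trem2 in Cont, S100a8 and S100a9 (2.36 and 2.20), Krt7 and Krt19 were higher on refeeding in Drp1LiKO and Col1a1 and Acta2 lower there, and Cfd was higher in both. Cps1 of the hepatocyte list was 1.24 higher in refed Drp1LiKO. None of 6 endothelial markers was 2-fold apart in any comparison. The part of these cell types in the differences was not tested, and in whole liver fewer cells of a type and less RNA per cell cannot be told apart.

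Ppara itself was lowest in Drp1LiKO in both feeding states. Its signal was 17922 in Cont, 13446 in Drp1LiKO, 12230 in Cont refed and 6879 in Drp1LiKO refed, and its log2 level relative to the 75th percentile was 5.28, 4.22, 5.10 and 3.71. Both Cont levels thus lay above both Drp1LiKO levels, and the difference between Cont fasted and Cont refed, -0.18, was smaller than its SE of 0.20. The difference Drp1LiKO minus Cont was -1.06 (SE 0.20) in the fasted pair and -1.39 (SE 0.20) in the refed pair. In these comparisons 5.04% and 6.33% of all genes were at least 2-fold lower. The other Ppara probes gave -1.10 and -1.22 after fasting and -1.38 and -1.495 after refeeding. The fasted difference lay between -1.12 and -0.81 over 7 settings of scaling, background correction and probe choice and was 2-fold under 3 of them, while the refed difference, between -1.39 and -1.18, was 2-fold under all 7. Refeeding went with a difference of -0.51 (SE 0.20) in Drp1LiKO.

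**Figure D2:**
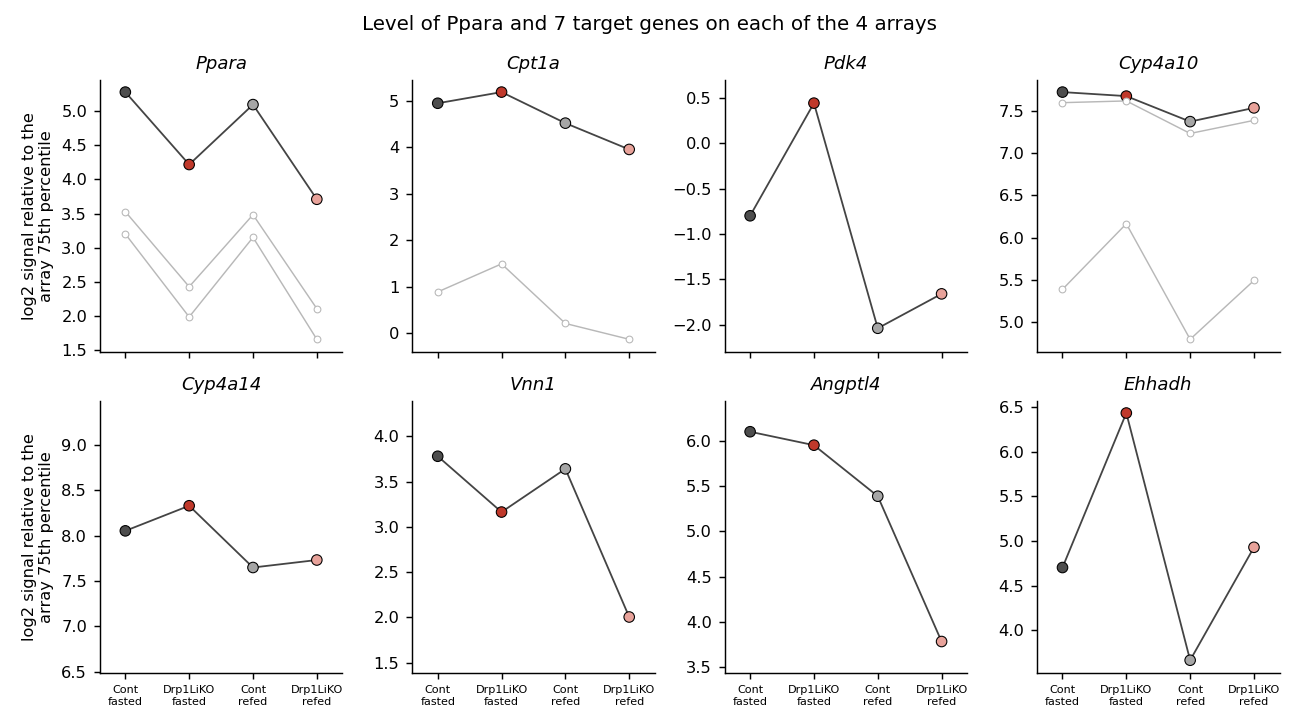
Each panel gives 1 gene, with the log2 signal relative to the array 75th percentile on the y axis and the 4 arrays on the x axis. Filled points are the probe used, open points the other probes of the gene, lines join the arrays for the eye, and the y range differs between panels. Ppara has the same order of arrays with all 3 probes, and Ehhadh and Pdk4 are highest in fasted Drp1LiKO.

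Cpt1a, the carnitine palmitoyltransferase that admits long-chain fatty acids to mitochondria, was less than 2-fold apart between genotypes in both states. Its signal was 14167 in Cont, 26215 in Drp1LiKO, 8163 in Cont refed and 8124 in Drp1LiKO refed, at log2 levels of 4.94, 5.18, 4.52 and 3.95. The genotype difference was 0.24 (SE 0.20) in fasted and -0.57 (SE 0.20) in refed livers, so its sign differed between the states, and the fasted value lay between 0.18 and 0.55 over the 7 settings. The refeeding difference was -0.43 in Cont and -1.23 in Drp1LiKO. The probe used is printed 10 times, with an SD over spots of 0.0297 to 0.0337 on the log2 scale. The second probe gave genotype differences of 0.60 and -0.34.

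Pdk4, a kinase that inactivates pyruvate dehydrogenase and so spares glucose, stood out in fasted Drp1LiKO. Its signal was 265 in Cont, 981 in Drp1LiKO, 86.7 in Cont refed and 166 in Drp1LiKO refed, at log2 levels of -0.80, 0.44, -2.04 and -1.66. Drp1LiKO was higher by 1.24 (SE 0.21) after fasting, where 4.53% of all genes were at least 2-fold higher, and by 0.38 (SE 0.24) after refeeding, where 4.03% were. Refed levels were lower in both genotypes, with differences of -1.24 (SE 0.24) in Cont and -2.10 (SE 0.21) in Drp1LiKO. With normexp background correction the Cont value was -0.83. Pdk4 is also expressed in skeletal muscle, and the part of muscle RNA in its Cont fasted level, which enters the fasted genotype difference and the Cont refeeding difference, was not tested.

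Ehhadh, the bifunctional enzyme of peroxisomal beta-oxidation, was the target with the largest genotype difference in the fasted pair and the only one of the 7 at least 2-fold higher in Drp1LiKO in both states. Its signal was 11993 in Cont, 62277 in Drp1LiKO, 4528 in Cont refed and 16012 in Drp1LiKO refed, at log2 levels of 4.70, 6.43, 3.67 and 4.93. Refed Drp1LiKO and fasted Cont were the nearest neighbours in that order. The genotype difference was 1.73 (SE 0.20) in the fasted pair and 1.26 (SE 0.20) in the refed pair. The refeeding difference was -1.04 in Cont and -1.502 in Drp1LiKO. Its opposite sign to Ppara held in both states under all 7 settings.

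Cyp4a10 and Cyp4a14, omega-hydroxylases of fatty acids, had the smallest genotype differences of the 7 targets in the refed pair, except that Pdk4 was smaller with normexp (0.24), and on the main scale they were 2-fold apart in no comparison. Cyp4a10 had signals of 97435, 147715, 59233 and 97664 in Cont, Drp1LiKO, Cont refed and Drp1LiKO refed, at log2 levels of 7.72, 7.68, 7.37 and 7.54. Its genotype differences of -0.05 and 0.16 were smaller than their SE of 0.20, and the fasted one lay between -0.10 and 0.48 over the 7 settings. The probe A_55_P2011111, without the long run, gave 0.02 and 0.16, whereas A_55_P2092030 gave 0.78 and 0.70. Cyp4a14 had signals of 122249, 232085, 71571 and 111617, at log2 levels of 8.05, 8.33, 7.65 and 7.73. Its genotype differences were 0.28 (SE 0.20) and 0.08 (SE 0.20), and over the 7 settings they lay between 0.22 and 0.78 and between 0.08 and 0.33. Both genes were lower on the refed arrays, with differences of -0.35 in Cont and -0.14 in Drp1LiKO for Cyp4a10 and of -0.40 and -0.60 for Cyp4a14, the last of which was 2-fold under 3 of the 7 settings. No spot of these bright probes was saturated.

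Vnn1, which encodes the pantetheinase vanin-1, and Angptl4, a secreted inhibitor of lipoprotein lipase, shared the low level of Ppara in refed Drp1LiKO. Vnn1 had signals of 6322 in Cont, 6466 in Drp1LiKO, 4449 in Cont refed and 2110 in Drp1LiKO refed, at log2 levels of 3.78, 3.16, 3.64 and 2.01. Its genotype difference was -0.62 (SE 0.20) in fasted livers and -1.63 (SE 0.20) in refed livers. Angptl4 had signals of 31581, 44652, 14946 and 7245 on the same arrays, at log2 levels of 6.10, 5.95, 5.39 and 3.78. Its genotype difference was -0.15 (SE 0.20) after fasting, between -0.21 and 0.21 over the 7 settings and so without a settled sign, and -1.60 (SE 0.20) after refeeding. For both genes the refed Drp1LiKO array was the lowest of the 4.

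Ppara and its targets were then set against each other, because a shift common to an array cancels in that contrast. After fasting, 4 of the 7 targets were above 0 and 3 below in the genotype difference, with a median of 0.24 against -0.08 for all genes. This split depended on the setting: under 4 of the 6 alternatives 6 targets were above 0 and only Vnn1 below, and the median ran from 0.18 to 0.55 over the 7 settings, with 0.54 under quantile normalization. The difference of Ppara minus that median was -1.30. After refeeding there were again 4 above and 3 below, the median was 0.08 against -0.04 for all genes, and Ppara minus the median was -1.47. The refed split was the same under all 7 settings, with medians from 0.08 to 0.33. At least 2-fold higher in fasted Drp1LiKO were Pdk4 and Ehhadh, and no target was 2-fold lower. In refed Drp1LiKO, Ehhadh was at least 2-fold higher and Vnn1 and Angptl4 lower. These are values of single arrays, with no test.

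**Figure D3:**
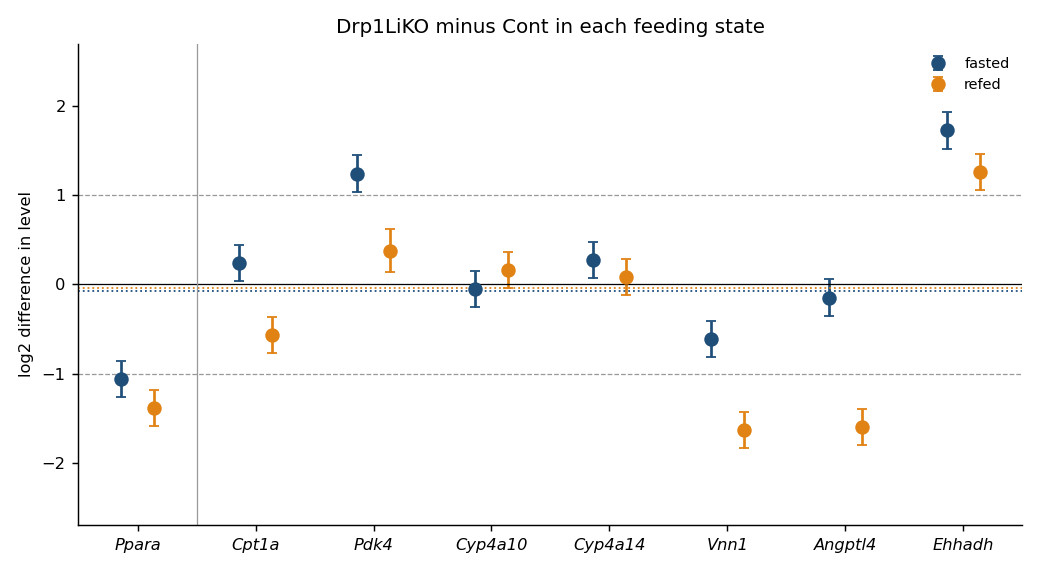
Points give the log2 difference Drp1LiKO minus Cont for Ppara and its 7 targets in each feeding state, bars the measurement SE, dashed lines a 2-fold difference and dotted lines the median of all genes. Ppara lies below -1 in both states, while the targets spread from -0.62 to 1.73 after fasting and from -1.63 to 1.26 after refeeding.

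In the refeeding comparison all 7 targets and Ppara were lower on the refed array in both genotypes, as were 41.4% of all genes in Cont and 44.7% in Drp1LiKO. The differences of Vnn1 (-0.14) and Ppara (-0.18) in Cont and of Cyp4a10 (-0.14) in Drp1LiKO were smaller than their SE of 0.20. In Cont, the target differences ran from -1.24 to -0.14, and Pdk4 and Ehhadh were at least 2-fold lower. The median of all genes was 0.09, and 3.69% of genes were at least 2-fold lower and 3.69% higher. In Drp1LiKO, the differences ran from -2.17 to -0.14, and Cpt1a, Pdk4, Vnn1, Angptl4 and Ehhadh, 5 of 7, were at least 2-fold lower. There the median of all genes was 0.08, with 4.74% of genes at least 2-fold lower and 4.51% higher. Scaling moved that median, which lay between -0.10 and 0.17 over the 7 settings and between -0.13 and 0.09 for the fasted genotype difference.

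The refeeding difference was more negative in Drp1LiKO for 6 of the 7 targets, with a median over the 7 of -0.81 (Drp1LiKO minus Cont). The median refeeding difference of all genes was 0.09 in Cont and 0.08 in Drp1LiKO. The share of all genes with a more negative difference in Drp1LiKO is not given here, so the count of targets has no baseline. It was -1.45 (SE 0.29) for Angptl4, -1.02 (SE 0.29) for Vnn1, -0.86 (SE 0.32) for Pdk4, -0.81 (SE 0.29) for Cpt1a, -0.46 (SE 0.29) for Ehhadh and -0.19 (SE 0.29) for Cyp4a14. The value of Cyp4a14 was smaller than its SE. Cyp4a10 was the exception at 0.21 (SE 0.29), and its value lay between -0.15 and 0.32 over the 7 settings. For Ppara it was -0.33 (SE 0.29). This quantity uses all 4 arrays and leaves none to estimate the spread between animals.

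**Figure D4:**
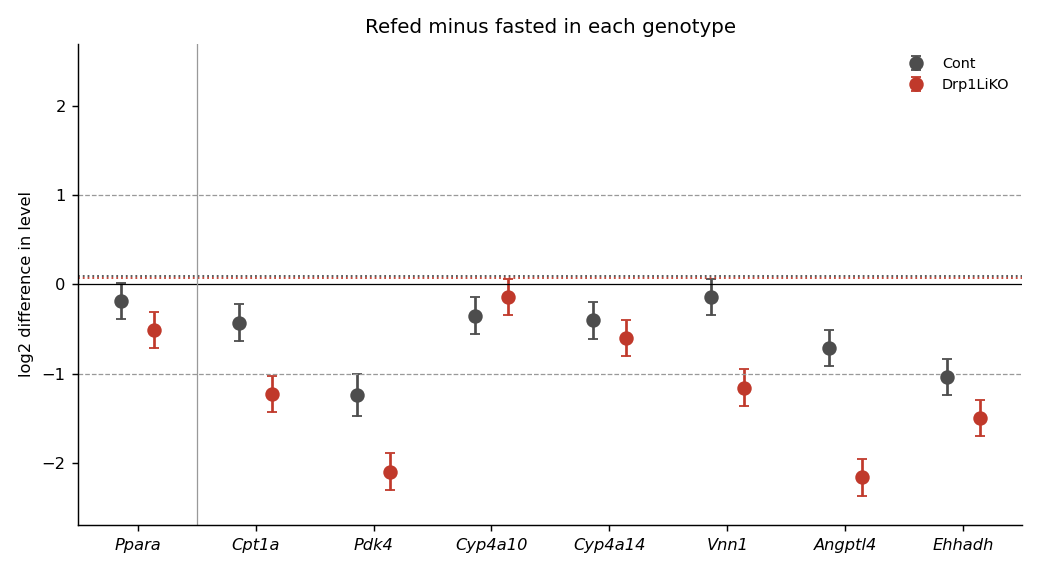
Points give the log2 difference refed minus fasted for each gene in Cont and Drp1LiKO, bars the measurement SE, dashed lines a 2-fold difference and dotted lines the median of all genes. All points lie below 0, and the Drp1LiKO point lies below the Cont point for every gene other than Cyp4a10.

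The one model with a degree of freedom left was an additive limma fit of genotype and feeding state, which counts any interaction as error. Over 16744 genes it called 0 genes for genotype (0%, with 4746 at an unadjusted p under 0.05) and 0 for feeding state (0%, with 4414), by limma with Benjamini-Hochberg adjustment. The genotype estimate of Ppara was -1.23 (SE 0.16) and that of Ehhadh 1.496 (SE 0.185), each with a limma adjusted p of 0.1016. Fitted only over the 14447 genes measured above background on every array, 8.4% of genes were called for genotype and 0.104% for feeding state. In that limma fit the genotype adjusted p was 0.0355 for Ppara and 0.0333 for Ehhadh, the only members called, and no member was called for feeding state, with the lowest adjusted p of 0.0688 for Pdk4 and Ehhadh. Over all limma settings the genotype adjusted p ran from 0.0355 to 0.1327 for Ppara and from 0.0333 to 0.1327 for Ehhadh.

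The patterns over the arrays differed among the targets over a range like that between Ppara and its targets. After each gene was centered on its mean over the 4 arrays, the root mean square distance from Ppara was 0.24 for Vnn1, the nearest target, and 1.44 for Ehhadh, the farthest. Between targets the distances ran from 0.17 for Cyp4a10 and Cyp4a14 to 1.35 for Vnn1 and Ehhadh, with Pdk4 and Ehhadh 0.41, Pdk4 and Vnn1 1.096 and Angptl4 and Ehhadh 1.21 apart. Among 11822 named genes measured above background on every array, those nearest to Ppara were Cyp2c39, a cytochrome P450, at 0.016, Pnldc1 at 0.044, Eif4ebp2 at 0.052, Rhbdl1 at 0.077 and Tspan33 at 0.085. Nearest to the mean of the 7 targets were Marchf6 (0.062), Elovl5 (0.063), Hps4 (0.080), Cbfa2t3 (0.080) and 4833420G17Rik (0.083). With 4 arrays, such distances are a description of these livers.

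Beyond the 8 members, 64 genes of the pathway were listed by role, and all 64 were usable. In the fasted genotype difference 5 were at least 2-fold higher and 4 lower, against 4.53% and 5.04% of all genes, and the median was -0.23 against -0.08. The fasted counts were thus near the share over all genes. In the refed genotype difference 1 was higher and 12 lower, against 4.03% and 6.33%, with a median of -0.61 against -0.04, and 53 of 64 were below 0, against 53.9% of all genes. In the refeeding difference 4 were higher and 4 lower in Cont, against 3.69% each way, with a median of -0.05 against 0.09. In Drp1LiKO 0 were higher and 14 lower, against 4.51% and 4.74%, with a median of -0.52 against 0.08, and 54 of 64 were below 0, against 44.7% of all genes. Over the 7 settings the fasted genotype median ran from -0.28 to 0.03 and so had no settled sign, while the refed one ran from -0.63 to -0.40 and that of refeeding in Drp1LiKO from -0.80 to -0.43.

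The list of the receptor's partners holds 14 other genes, among them the retinoid X receptors, the related receptors Ppard and Pparg and coregulators. None was 2-fold apart between genotypes in either state, which in a list of this size is near the shares over all genes (4.53% higher and 5.04% lower after fasting, 4.03% and 6.33% after refeeding). Their median genotype differences were -0.20 in the fasted and -0.18 in the refed pair. The lowest values were those of Med1, a Mediator subunit, at -0.66 (SE 0.20) after fasting and of Creb3l3, a hepatic transcription factor, at -0.85 (SE 0.20) after refeeding. Ppargc1a, a coactivator induced by fasting, was lower on the refed array, with differences of -1.02 in Cont and -0.85 in Drp1LiKO.

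Of 13 other mitochondrial beta-oxidation and ketogenesis genes, 12 were below 0 in refed Drp1LiKO against refed Cont. So were 53.9% of all genes and 8 of the 9 hepatocyte markers. The median of the 13 was -0.61, against -0.04 for all genes and -0.45 for the hepatocyte markers. Bdh1, which makes beta-hydroxybutyrate, had a genotype difference of -1.03 in the refed pair. Acot2, a mitochondrial acyl-CoA thioesterase, had a genotype difference of 2.47 in the fasted pair and a refeeding difference of -3.08 in Drp1LiKO.

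Of 14 other peroxisomal genes, 13 were below 0 after fasting and 14 after refeeding, opposite in sign to Ehhadh of the same pathway. The medians were -0.52 and -0.81, against -0.08 and -0.04 for all genes, of which 56.3% and 53.9% were below 0. The 9 hepatocyte markers had medians of -0.58 and -0.45 in the same comparisons, with 8 of 9 below 0 in each, so the fasted median of the peroxisomal genes was no lower than theirs. With quantile normalization the peroxisomal medians were -0.23 and -0.65, and 11 and 14 of the 14 peroxisomal genes were below 0. At least 9 and 14 were so under each of the 7 settings. The hepatocyte medians were 0.0 and -0.09 with quantile normalization. As that setting limits how far very bright genes can differ, its hepatocyte medians are no measure of a shift across hepatocyte genes. Acot3, a peroxisomal thioesterase, had genotype differences of -2.05 and -3.34. They were -0.56 and -1.85 for Pex11a, which takes part in peroxisome division, and -0.38 and -1.53 for the thiolase Acaa1b. Abcd2, a peroxisomal transporter, had a genotype difference of -1.36 in the fasted pair. It was lower on refeeding in Cont (-3.01, SE 0.35) and in Drp1LiKO (-2.57, SE 0.34). Its refed levels of -3.47 in Cont and -4.39 in Drp1LiKO were close to the lowest signals well above background on those arrays, -3.55 and -4.54. Crot, which makes carnitine esters of chain-shortened acyl groups, was likewise lower on refeeding (-1.08 and -1.78).

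Among 6 other omega-oxidation genes, Cyp4a12a and Cyp4a12b were higher by 1.38 and 1.39 in fasted Drp1LiKO. The genes are close copies, their probes share no run longer than 6 bases, and whether each probe reads the other transcript was not tested. They were also higher by 1.21 and 1.22 on refeeding in Cont, so that their lowest level was on the Cont fasted array. Por, the reductase that serves the P450 enzymes, had a genotype difference of -1.01 in the refed pair. Aldh3a2, a fatty aldehyde dehydrogenase, had a refeeding difference of -1.92 in Drp1LiKO.

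The list of lipid transport, storage and secreted targets, the longest of the 5, ran from -2.25 to 2.58 in the fasted genotype difference. Of 17 other genes, 2 were at least 2-fold higher and 2 lower in fasted Drp1LiKO, against 4.53% and 5.04% of all genes. In refed Drp1LiKO 1 was higher and 5 lower, against 4.03% and 6.33%. In a list of this size, counts of 1 or 2 cannot be told from those shares. Fgf21, a fasting hormone of the liver, had log2 levels of 1.75, 4.33, 3.23 and 2.56 in Cont, Drp1LiKO, Cont refed and Drp1LiKO refed. It was thus highest in fasted Drp1LiKO, by 2.58 over Cont, and 1.47 higher on refeeding in Cont. Cidec, a lipid droplet protein, had a genotype difference of 1.59 in the fasted pair, and that of Plin4, another, was -1.03. Acot1, a cytosolic thioesterase, had genotype differences of 0.03 in the fasted and -2.38 in the refed pair. Lpl, lipoprotein lipase, had one of 1.45 in the refed pair. Slc22a5, the carnitine transporter, had a refeeding difference of -1.91 in Drp1LiKO. Fabp3, the fatty acid-binding protein of heart and skeletal muscle, had a genotype difference of -2.25 in the fasted pair and was at least 14.7-fold lower on refeeding in Cont, and both values rest on the Cont fasted array with its muscle transcripts.

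**Figure D5:**
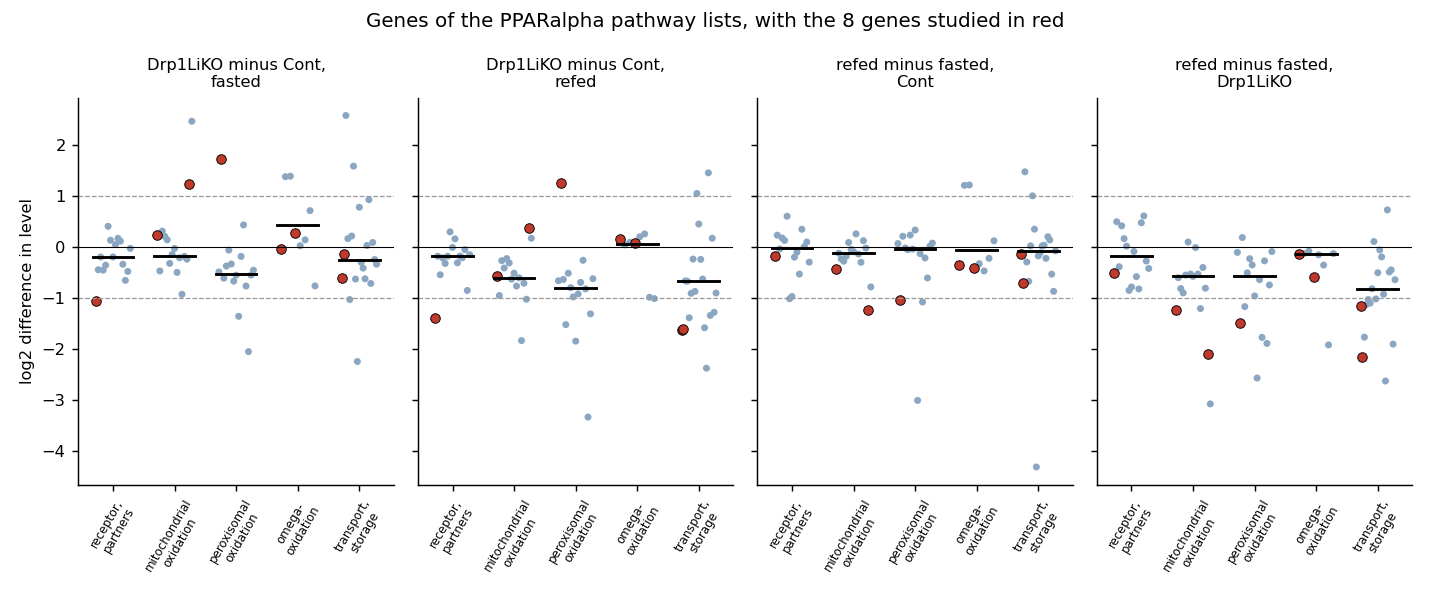
Points give the log2 difference of each gene of the 5 PPARalpha pathway lists in the 4 comparisons, with the 8 genes studied in red, the others in blue, bars at the median of the others and dashed lines at a 2-fold difference. The refed genotype panel and the Drp1LiKO refeeding panel lie mostly below 0, with medians over the 64 others of -0.61 and -0.52, and the lowest Cont refeeding point is Fabp3, whose refed signal was not well above background.

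The feeding-state lists gave the frame for these values. Of 11 gluconeogenic and insulin-repressed genes, the median refeeding difference was -0.63 in Cont and -0.83 in Drp1LiKO. Igfbp1 was 3.68 higher in fasted Drp1LiKO than in fasted Cont. Irs2 and Pck1 were lower on refeeding in both genotypes, by -1.35 and -0.63 in Cont and by -1.98 and -1.596 in Drp1LiKO. Of 11 usable carbohydrate- and insulin-induced genes, 3 were at least 2-fold higher on refeeding in Cont and 7 in Drp1LiKO, with medians of 0.58 and 1.30. Of all genes, 3.69% and 4.51% were so. In Cont 1 of the 11 was below 0, Mlxipl (-0.61). In Drp1LiKO 3 were, Mlxipl (-0.80), Me1 (-0.27) and Scd1, the stearoyl-CoA desaturase (-0.83), which was 0.58 higher in Cont. Srebf1 was higher by 1.29 and 2.55 and Fasn by 1.54 and 2.42. After fasting, Thrsp and Srebf1 were lower in Drp1LiKO than in Cont (-1.996 and -1.65), and after refeeding Scd1 and Thrsp were (-2.13 and -1.32).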

How the data were processed

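Liver RNA of 4 groups was measured on 1 array each, all on 1 slide and in 1 scan. The deposited intensity values are signals that Feature Extraction (9.5.1.1 in the submitters' processing notes, 10.7.1.1 in the file headers) background-subtracted within each array, not normalized between arrays. The deposited matrix holds quantile-normalized intensities and was used as an alternative after conversion to log2. On that scale it equals a quantile normalization of the same signals within 7.15e-10. Log2 signals were set relative to the 75th percentile of the 43020 gene spots, outlier spots were dropped (37 probes) and spots of a probe averaged. A gene was read from its probe well above background on most arrays, then the brightest. A 2-fold call required the brighter side well above background, with the dim side at its bound. Software was R 4.3.3 with limma 3.58.1 and Python 3.11.15, and both rules were tested on simulated data. The labels and the methods name different array designs and RNA kits, and the files carry the design of the labels. The members and lists (5 pathway, 2 feeding-state and 8 cell-type lists) were chosen with earlier results of these data known. Named are the members, Dnm1l, the 3 largest 2-fold differences each way per pathway or feeding list, the 5 genes nearest in pattern, and 2-fold markers. Some further list genes are named after their values were seen. Some genes that this rule names are not reported here.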

Additional observations from a re-analysis of the deposited data

Results flagged for a closer look

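Cpt1a had genotype differences of opposite sign in the feeding states, 0.24 after fasting and -0.57 after refeeding, and their difference was -0.8052 (SE 0.29) on the log2 scale. Cyp4a10 did so too, with -0.05 and 0.16 and a difference of 0.2106 (SE 0.29), which is smaller than its measurement error. With 1 array per group, neither difference was tested.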

How the results depend on the processing

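Of 40 member values, 37 kept their sign under all 6 alternatives in scaling, background correction and choice of probe, and 3 did not: the fasted genotype difference of Angptl4 and of Cyp4a10 and the difference of the refeeding differences of Cyp4a10. Of 14 member differences of at least 2-fold, 12 were so under all settings, the exceptions being Ppara after fasting and Pdk4 on refeeding in Cont. The target median on refeeding was -0.65 in Cont and -1.59 in Drp1LiKO with quantile normalization, -0.65 and -1.58 in the deposited matrix, and -1.57 in Drp1LiKO with normexp. The distance of Ppara from the target median stayed between -1.38 and -1.30 after fasting and between -1.52 and -1.45 after refeeding. For genotype, limma called 319 genes with median scaling, 81 with normexp, 474 with an intensity trend and 1214 over genes well above background on all arrays, and for feeding state it called 15 over those genes. The fasted target median was 0.54 with quantile normalization and in the deposited matrix and 0.55 with normexp. The cause was not tested. A 1.5-fold threshold gave 4320 and 4431 genes between genotypes (fasted, refed) and 3149 and 5344 between feeding states (Cont, Drp1LiKO), against 1727, 1808, 1212 and 1695. The share of higher among 2-fold calls was 47.37% and 38.88% between genotypes, and 60.84% and 55.96% with the dim side at its measured signal. No paired analysis was possible because each group holds 1 array, and for the same reason no replicate could be left out. Without the Cont fasted array the limma fit has no residual degree of freedom.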
